A study of Mus musculus with 4 samples.

Results

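The S100, annexin and galectin effector genes described here are 10 genes from 3 families, measured in effector CD4 cells, namely S100a4, S100a6, S100a10, S100a11, Anxa1, Anxa2, Anxa5, Anxa6, Lgals1 and Lgals3. They were chosen by name, out of 23990 gene symbols, with earlier results of these data known. All 10 were among the 10634 genes whose mean level reached 1 FPKM in at least one tissue and which were tested. FPKM relates the fragments of a gene to its length in kilobases and to the total of the library, so that levels can be compared between genes of different length. Values were summed over the transcripts of each symbol, and a log2 ratio is CNS over dLN on the log2(FPKM + 1) scale.

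The cells were CD4 cells of wild type C57BL/6 mice (C57BL/6J in the Methods) with experimental autoimmune encephalomyelitis (EAE), a model of multiple sclerosis in which immunization with a myelin peptide (MOG) brings CD4 cells into the spinal cord. All 4 libraries came from immunized mice and from cells sorted as CD44+ at the onset of disease, 2 made from spinal cord (CNS) and 2 from pooled draining nodes (dLN), and no library of naive or unimmunized mice was analysed here. According to the Methods, PMA and ionomycin were given for 4 h after the sort, whereas the labels call the cells freshly sorted and name no stimulation. The levels are therefore those of effector cells either with or without stimulation after the sort. Each tissue was deposited as its own table, and Xist was at 26.6 and 22.3 FPKM in dLN but at 0 and 0.0026 FPKM in CNS, while Ddx3y was at 12.7 and 11.2 FPKM in CNS and listed at 0 in both dLN libraries, so tissue, table and these sex-linked transcripts follow the same split and cannot be told apart. The labels do not say which mice a library came from, and p-values therefore measure only the spread between these libraries.

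S100 proteins are small EF-hand proteins that change shape when they bind calcium and then attach to partners such as annexins and cytoskeletal myosin. Annexins bind membrane phospholipids in the presence of calcium and take part in membrane repair, vesicle traffic and the control of inflammation. Galectins bind beta-galactoside sugars on cell surface glycoproteins, and in T cells they are known for effects on survival, adhesion and receptor signalling.

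Most S100 genes lie on mouse chromosome 3. The promoters of neighbours with different levels are shown first because S100a4, S100a5 and S100a6 share one stretch of DNA. S100a4 (chr3:90603770-90606045, plus strand, mm10) and S100a6 (chr3:90612894-90614414, plus strand) flank S100a5 (chr3:90608522-90611780, plus strand), with gaps of 2.48 kb and 1.11 kb. S100a11 lies in a separate part of the chromosome next to S100a10, and Anxa1, on chromosome 19, is added as the member with the largest log2 ratio. The sequences are the 250 bases before the annotated start, in the direction of transcription, from RefSeq on GRCm38.p6 (mm10). Of the 10 genes, 7 were matched in the promoter table used here, and S100a10, Anxa6 and Lgals1 were not. Capitals mark every match, on either strand, to the TATA box TATAAA, the GC box GGGCGG, the AP-1 motif TGANTCA, the NFAT core TGGAAA or the Runx core TGTGGT.
S100a4: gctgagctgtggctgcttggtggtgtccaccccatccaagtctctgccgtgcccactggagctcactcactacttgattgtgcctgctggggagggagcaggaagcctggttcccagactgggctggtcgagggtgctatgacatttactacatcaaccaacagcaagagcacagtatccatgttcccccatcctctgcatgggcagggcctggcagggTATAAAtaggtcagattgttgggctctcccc
S100a5: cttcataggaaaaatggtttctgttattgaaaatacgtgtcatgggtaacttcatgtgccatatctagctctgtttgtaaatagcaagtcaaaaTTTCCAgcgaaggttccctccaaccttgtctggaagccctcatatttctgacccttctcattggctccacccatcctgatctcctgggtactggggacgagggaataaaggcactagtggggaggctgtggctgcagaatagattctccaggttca
S100a6: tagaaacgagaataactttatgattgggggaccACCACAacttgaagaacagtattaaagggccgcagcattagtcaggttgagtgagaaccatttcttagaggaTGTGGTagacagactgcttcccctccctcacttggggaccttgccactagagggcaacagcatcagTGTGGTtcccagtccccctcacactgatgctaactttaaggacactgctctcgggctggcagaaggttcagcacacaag
S100a11: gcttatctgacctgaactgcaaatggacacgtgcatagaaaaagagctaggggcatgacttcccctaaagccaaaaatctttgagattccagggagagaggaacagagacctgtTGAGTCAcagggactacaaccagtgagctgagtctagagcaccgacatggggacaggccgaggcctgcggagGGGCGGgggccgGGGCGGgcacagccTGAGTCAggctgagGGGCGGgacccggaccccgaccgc
Anxa1: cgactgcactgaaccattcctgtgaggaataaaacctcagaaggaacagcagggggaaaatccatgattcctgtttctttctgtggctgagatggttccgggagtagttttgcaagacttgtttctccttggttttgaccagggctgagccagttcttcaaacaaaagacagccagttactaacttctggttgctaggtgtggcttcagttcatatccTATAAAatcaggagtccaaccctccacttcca
These windows are chr3:90603520-90603769, chr3:90608272-90608521, chr3:90612644-90612893 and chr3:93520246-93520495 on the plus strand and chr19:20390672-20390921 on the minus strand.

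The windows differed in their letters. S100a4 and Anxa1 held a TATA box whose first base lay 31 and 32 bases before the start, whereas S100a6 held no TATA box in this window and 3 Runx cores. S100a11 held 3 GC boxes and 2 AP-1 motifs, and S100a5 held a single NFAT core on the opposite strand. Of the 7 windows of the effector genes, 3 held a TATA box (12.4% of all 32817 windows of the same length did), 3 a GC box (32.7% of all), 2 an AP-1 motif (6.75%), 1 an NFAT core (18.6%) and 1 a Runx core (14%). None of the 7 held the T-box motif TCACACC (3.33% of all windows), the Klf motif CCACACCC (3.19%) or the interferon response core, which is GAAA, any pair of bases and GAAA again (2.97%). A match describes the letters of the window only.

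All 10 effector genes were higher in CNS than in dLN effector CD4 cells. Each had a Benjamini-Hochberg adjusted p under 0.05 in limma, 9 of them with at least a 2-fold difference, and Anxa5 was the exception at a log2 ratio of 0.87. For all 10, both CNS libraries lay above both dLN libraries. The background was high, since 74.9% of all genes tested were called in either direction, 37.8% were called higher and 37.2% lower in CNS, 21.0% were called higher by at least 2-fold, and 45.7% had both CNS libraries above both dLN libraries. The median log2 ratio of the 10 genes was 2.44 (range 0.87 to 4.66), beside 0.05 over all genes tested. Since the genes were chosen with earlier results of these data known, these counts describe the chosen genes and are no independent finding. With 2 libraries per tissue, an exact permutation test of a single gene (two-sided) could not go below p = 0.333, so the calls rest on the spread that limma shares between genes.

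**Figure D1:**
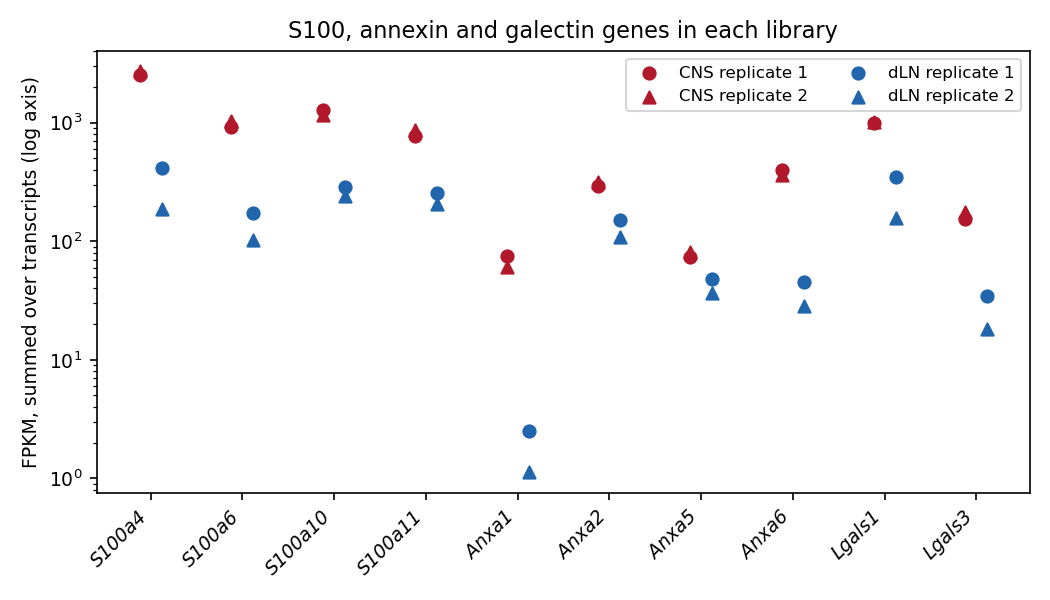
Level of each effector gene in each library, in FPKM summed over transcripts on a log axis, with CNS libraries in red and dLN libraries in blue (circles, replicate 1; triangles, replicate 2). For every gene both red points lie above both blue points, with the widest gap for Anxa1 and the narrowest for Anxa5.

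Among the 10 genes, S100a4 and S100a10 had the highest mean levels in both tissues. S100a4, whose protein binds the heavy chain of nonmuscle myosin and is known for roles in cell migration, reached 2512 and 2740 FPKM in CNS, and 413 and 186 FPKM in dLN. It was the most abundant of the 10 genes in CNS, where it ranked 44 and 41 among all gene symbols, against 163 and 385 in dLN. The tissues did not overlap, and the log2 ratio was 3.24 ± 0.38 (SE, limma, adjusted p = 0.0012), although the dLN libraries themselves differed 2.21-fold. S100a6 (calcyclin), the neighbour of S100a5, was at 926 and 1043 FPKM in CNS and at 174 and 103 FPKM in dLN. Its lowest CNS value was 5.33 times its highest dLN value, and its log2 ratio was 2.86 ± 0.25 (limma adjusted p = 0.000509).

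S100a10 (chr3:93555117-93564645, plus strand), the S100 protein that has lost calcium binding and pairs with annexin A2, was at 1275 and 1171 FPKM in CNS and at 287 and 240 FPKM in dLN. Its dLN libraries differed 1.19-fold, the least of the S100 members, and its log2 ratio was 2.22 ± 0.11 (limma adjusted p = 0.000123). S100a11 (chr3:93520496-93526288, plus strand), a partner of annexin A1, was at 767 and 867 FPKM in CNS and at 255 and 207 FPKM in dLN, without overlap. The log2 ratio of S100a11 was 1.83 ± 0.13 (limma adjusted p = 0.000279), the smallest of the S100 members. These S100 genes have short transcripts of 499 to 719 bases, and the deposited FPKM divided by an effective length shorter than the transcript by 150 bases in CNS replicate 1 and by 184 to 196 bases in the other libraries. With the whole transcript length instead, chosen after seeing the data, the log2 ratios of S100a4, S100a6, S100a10 and S100a11 were 3.29, 2.90, 2.25 and 1.88.

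The annexins ranged most widely. Anxa1 (chr19:20373434-20390671, minus strand), an anti-inflammatory annexin induced by glucocorticoids, was at 75.8 and 60.5 FPKM in CNS and at 2.50 and 1.12 FPKM in dLN. Its mean level was the lowest of the 10 genes in each tissue, and its dLN levels rested on an estimated 56 and 30 fragments against 1972 and 1574 in CNS. The log2 ratio of Anxa1 was 4.66 ± 0.27 (limma adjusted p = 0.000166), above that of 99.7% of all genes tested, and the ratio of its mean FPKM was 37.6. The log2 ratio of this gene, which was low in dLN, moved with the pseudocount, to 5.25 with 0.1 and 3.42 with 5 FPKM added. Anxa6 (chr11:54978962-55033471, minus strand), a larger annexin with a repeated core that binds membranes and actin, was at 401 and 365 FPKM in CNS and at 45.6 and 28.3 FPKM in dLN. The lowest CNS value of Anxa6 was 7.99 times the highest dLN value, and its log2 ratio was 3.38 ± 0.23 (limma adjusted p = 0.000254).

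Anxa2 (chr9:69453683-69491785, plus strand), the partner of S100a10, was at 292 and 315 FPKM in CNS and at 151 and 108 FPKM in dLN. It did not overlap between tissues, but its log2 ratio of 1.24 ± 0.17 (limma adjusted p = 0.0022) was among the smaller ones. Anxa5 (chr3:36448924-36475887, minus strand), which binds exposed phosphatidylserine and is best known as a reagent for dying cells, was at 73.7 and 80.5 FPKM in CNS and at 48.0 and 36.4 FPKM in dLN. Its log2 ratio of 0.87 ± 0.15 (limma adjusted p = 0.00509) was the smallest of the 10 genes, and 75.1% of all genes tested had a lower one. Without CNS replicate 2 the limma adjusted p of Anxa5 was 0.0568, with a log2 ratio of 0.80.

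The galectins were both higher in CNS. Lgals1 (chr15:78926725-78930465, plus strand), a dimeric galectin that crosslinks glycoproteins of the T cell surface, was at 1000 and 1022 FPKM in CNS and at 346 and 158 FPKM in dLN. The CNS libraries of Lgals1 differed by little while its dLN libraries differed 2.20-fold, and its log2 ratio was 2.11 ± 0.37 (limma adjusted p = 0.00503). Leaving out CNS replicate 1 or CNS replicate 2 gave log2 ratios of 2.12 and 2.09 for Lgals1 but limma adjusted p-values of 0.0659 and 0.0642. Lgals3 (chr14:47373860-47386167, plus strand), the galectin with a tail that lets it form larger assemblies, was at 154 and 176 FPKM in CNS and at 34.8 and 18.2 FPKM in dLN. The log2 ratio of Lgals3 was 2.66 ± 0.31 (limma adjusted p = 0.00117).

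The order of the levels differed between the tissues. In CNS, S100a4 was followed by S100a10, Lgals1, S100a6, S100a11, Anxa6, Anxa2, Lgals3, Anxa5 and Anxa1. Of these neighbours, Lgals1 and S100a6 overlapped between the libraries, as did Anxa5 and Anxa1, and the order of each other pair was the same in both CNS libraries. In dLN the order was S100a4, S100a10, Lgals1, S100a11, S100a6, Anxa2, Anxa5, Anxa6, Lgals3 and Anxa1. The first 4 of these genes overlapped from one to the next, as did S100a6 with Anxa2, Anxa5 with Anxa6 and Anxa6 with Lgals3, so S100a4 stood apart from the rest in CNS but not in dLN. Together the 10 genes summed to 7476 and 7840 FPKM in CNS and to 1755 and 1086 FPKM in dLN, which was 1.30% and 1.29% of the FPKM of the CNS libraries and 0.34% and 0.212% of that of the dLN libraries.

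Ratios of FPKM between members within a library, which need no scaling between libraries, also differed between the tissues. S100a10 over Anxa2, the genes of the paired proteins, was 4.37 and 3.71 in CNS and 1.90 and 2.22 in dLN. Anxa6 over Anxa5 was 5.43 and 4.53 in CNS and 0.949 and 0.777 in dLN, so Anxa6 was the more abundant in both CNS libraries and in neither dLN library. Anxa1 over Anxa2 was 0.26 and 0.192 in CNS and 0.0166 and 0.0104 in dLN. Each of these ratios separated the tissues without overlap. Lgals1 over Lgals3 went the other way, at 6.51 and 5.81 in CNS and 9.95 and 8.68 in dLN. S100a4 over S100a6 was steadier, at 2.71 and 2.63 in CNS and 2.38 and 1.80 in dLN, again without overlap. These ratios are descriptions and were not tested, and the share of all gene pairs that separate the tissues in this way was not computed.

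The dLN libraries differed from each other in all of these genes. Every one of the 10 was higher in dLN replicate 1 than in dLN replicate 2, by a median of 0.70 on the log2(FPKM + 1) scale (range 0.25 to 1.14). Of all genes tested, 61.6% were higher in dLN replicate 1, with a median difference of 0.05, and 2.01% differed by as much as the median of the 10 genes or more. On this scale the gap was widest for S100a4 and Lgals1 (1.14 and 1.13) and narrowest for S100a10 (0.25). As a ratio of FPKM, without the 1 FPKM added, it was 2.23 for Anxa1, which was low in dLN, 2.21 for S100a4 and 2.20 for Lgals1. In CNS, 3 of the 10 were higher in replicate 1, and the differences lay between -0.19 and 0.32. Where dLN replicate 1 was left out, the median log2 ratio of the 10 genes was 2.89, and without dLN replicate 2 it was 2.15, with all 10 called higher in CNS either way. For Lgals1 the log2 ratio was then 2.67 and 1.54, and for S100a4 it was 3.81 and 2.67. The cause of the difference between the dLN libraries was not tested.

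**Figure D2:**
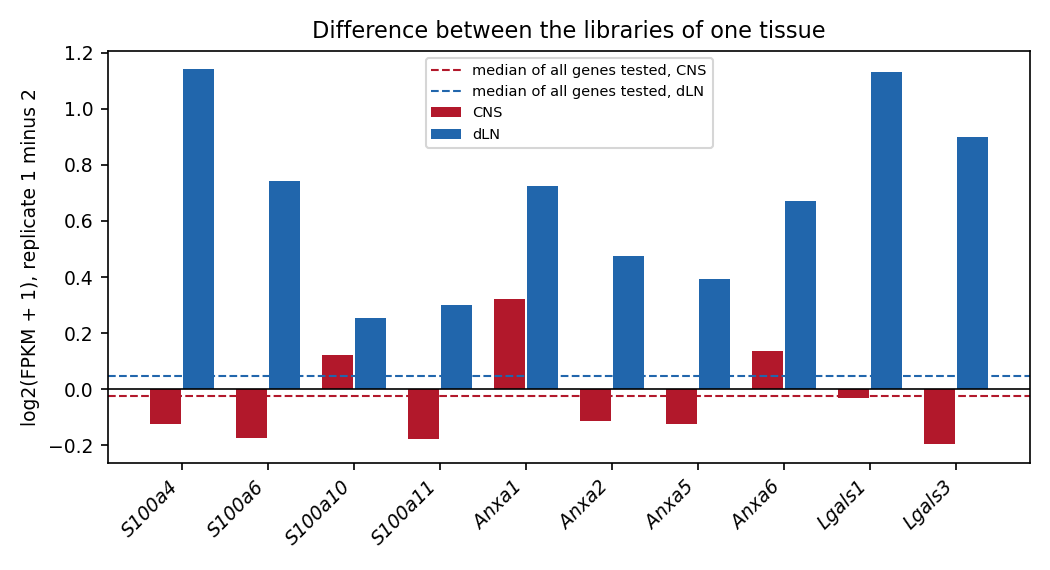
Difference in log2(FPKM + 1) between replicate 1 and replicate 2 of the same tissue for each effector gene, as bars from 0 (CNS red, dLN blue), with dashed lines at the median over all genes tested. All 10 blue bars point upwards, from 0.25 to 1.14, while the red bars lie between -0.19 and 0.32.

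Along chromosome 3 the other S100 genes gave a mixed picture, and S100a4, S100a6, S100a10 and S100a11 together made up 95.8% and 93.2% of all S100 FPKM in CNS and 97.6% and 97.4% in dLN. Of 14 other S100 genes, 6 reached the minimum level and were tested, of which 3 were called higher in CNS and 1 lower, beside 37.8% higher and 37.2% lower over all genes tested. S100a13, a protein involved in the release of proteins that lack a signal peptide, was at 231 and 219 FPKM in CNS and at 24.9 and 17.0 FPKM in dLN, with a log2 ratio of 3.39 ± 0.19 (limma adjusted p = 0.000151) close to that of S100a4. S100a5, whose promoter is printed above and which lies between S100a4 and S100a6, was at 0 and 0.579 FPKM in CNS and at 1.77 and 1.46 FPKM in dLN. It was the one tested S100 gene called lower (log2 ratio -1.05 ± 0.26, limma adjusted p = 0.0166). It passed the minimum level through dLN alone, so it could only be called lower. Its levels rested on an estimated 0 and 3 fragments in CNS and 8 and 8 in dLN. It was under 2 FPKM in every library, and without either dLN library its limma adjusted p was 0.0793 (without replicate 1) or 0.0533 (without replicate 2). S100a1 (log2 ratio 1.25) and S100a16 (listed at 0 in both dLN libraries, mean 1.27 FPKM in CNS) were called higher at low levels. Both passed the minimum level through CNS alone, so they could only be called higher.

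**Figure D3:**
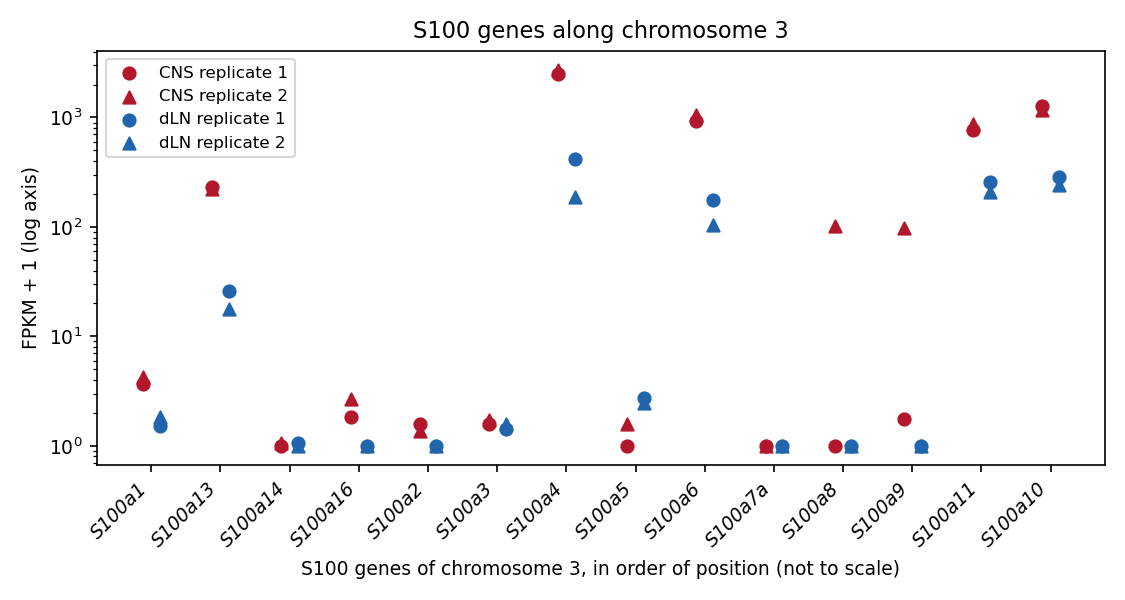
FPKM + 1 on a log axis of the S100 genes of chromosome 3, in their order along the chromosome (not to scale), in the CNS libraries (red) and dLN libraries (blue; circles, replicate 1; triangles, replicate 2). S100a4, S100a6, S100a11 and S100a10 stand above 100 FPKM in all 4 libraries, S100a5 between them is near 0, and S100a8 and S100a9 are high in CNS replicate 2 alone.

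S100a8 and S100a9, the subunits of calprotectin and the S100 genes most typical of neutrophils and monocytes, followed a library and not the tissue. S100a8 was at 0 and 101 FPKM in CNS and S100a9 at 0.767 and 96.0 FPKM, and both were listed at 0 in both dLN libraries. Neither was called (limma adjusted p = 0.214 for S100a8 and 0.129 for S100a9). Without CNS replicate 1 the log2 ratios were 6.67 for S100a8 and 6.60 for S100a9, and without CNS replicate 2 they were 0 and 0.82. In those fits the spread of each gene came only from dLN libraries listed at 0, so they cannot decide a call. With a pseudocount of 0.1 and all 4 libraries S100a9 was called (log2 ratio 6.51, limma adjusted p = 0.0421). Microglia and macrophage markers (14 genes) summed to 25.5 FPKM in CNS replicate 1, to 185 FPKM in CNS replicate 2 and to 4.38 and 3.93 FPKM in dLN. Of the 10 tested, 7 were called higher in CNS, beside 37.8% of all genes tested. Csf1r, Aif1, C1qa, C1qb and C1qc were listed at 0 in both dLN libraries. Itgam, Cd14, Lyz2 and Cx3cr1 were under 1 FPKM in both. All of these passed the minimum level through CNS alone and could only be called higher, so the share over all genes tested is no fair measure for them. Neutrophil and monocyte markers (9 genes) summed to 2.41 and 27.97 FPKM in CNS and to 3.67 and 1.34 FPKM in dLN, with 0 of the 5 tested called, and Csf3r, Camp and Ngp were listed at 0 in both dLN libraries. Lyz2, of these markers the one with the highest mean in CNS, was at 3.22 and 92.1 FPKM in CNS.

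The effector genes were close to level between the CNS libraries, with sums of 7476 FPKM in replicate 1 and 7840 FPKM in replicate 2. Lgals3, which macrophages also express at high levels, was 0.874 times as high in CNS replicate 1 as in replicate 2. Without CNS replicate 2, 8 of the 10 genes were called higher, all but Anxa5 and Lgals1, and their median log2 ratio was 2.42. Without CNS replicate 1, 9 were called and the median was 2.46. T cell markers (10 genes) summed to 3421 and 3470 FPKM in CNS and to 1799 and 1707 FPKM in dLN, and they were present in every library. Of these, 6 were called higher and 3 lower, beside 37.8% higher and 37.2% lower over all genes tested. The 3 were Cd44, on which the cells were sorted, Cd247 (log2 ratio -0.41) and Cd5 (-0.29). Cd44 was at 112 and 112 FPKM in CNS and at 176 and 157 FPKM in dLN (log2 ratio -0.56, limma adjusted p = 0.00337). Cd4 was at 502 and 531 FPKM in CNS and at 82.0 and 66.7 FPKM in dLN, and Cd3g at 761 and 674 against 112 and 88.4 FPKM, while the mean of Cd2 was 487 FPKM in CNS and 491 FPKM in dLN. Endothelial and fibroblast markers summed to 23.4 and 30.3 FPKM in CNS and 12.4 and 9.98 FPKM in dLN (5 of 5 tested called higher). Most of each sum came from Pecam1, at 18.72 and 20.06 FPKM in CNS and 12.02 and 9.66 FPKM in dLN. CD8 T cell and NK cell markers summed to 8.93 and 12.3 against 3.69 and 3.58 FPKM (2 of 3). The 2 called were Eomes and Klrb1c, and Cd8b1 was not called (log2 ratio 0.22, limma adjusted p = 0.181). The paper cites work on human multiple sclerosis in which cytotoxic CD4 cells expressed Eomes. Cldn5, Cdh5, Col3a1, Dcn, Eomes and Klrb1c passed the minimum level through CNS alone and could only be called higher. B cell and dendritic cell markers summed to 3.21 and 11.2 against 2.34 and 1.20 FPKM (1 of 4). Glial and neuronal markers were at 51.4 and 57.2 FPKM in CNS and 56.1 and 58.1 FPKM in dLN, mostly from Mbp, which fell (log2 ratio -0.28, limma adjusted p = 0.0361). Of the other 3 tested in this list 2 were called higher, Gfap at 0.655 and 2.51 FPKM and Nefl at 1.34 and 7.01 FPKM in CNS, both listed at 0 in both dLN libraries (limma adjusted p = 0.0312 and 0.0243). Gfap and Nefl thus also passed the minimum level through CNS alone and could only be called higher. The part of these markers in the levels of the effector genes was not tested, and in bulk RNA a larger share of cells that express a gene and more RNA per cell cannot be told apart.

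**Figure D4:**
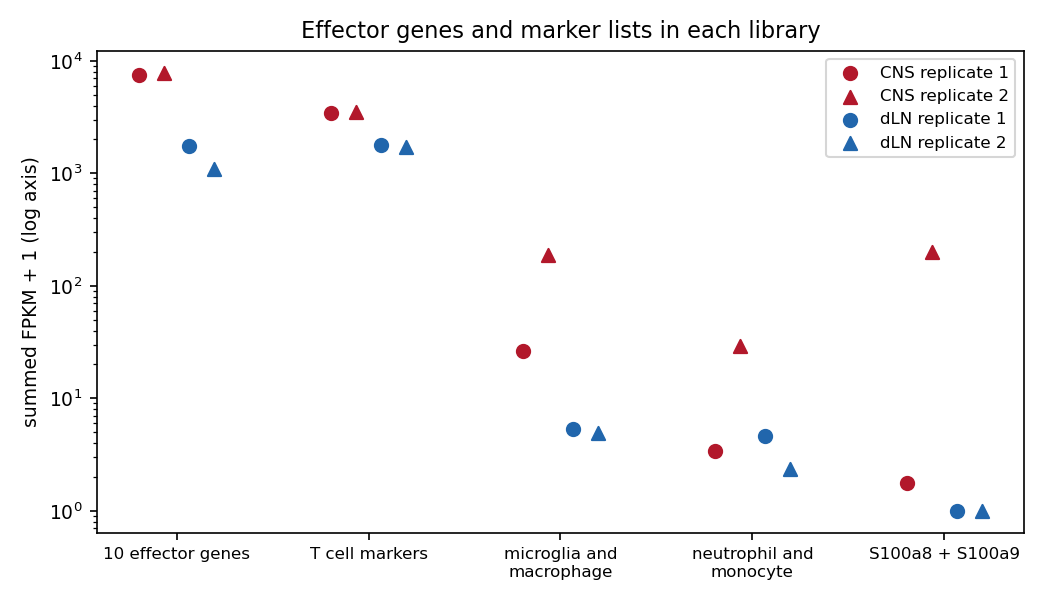
Summed FPKM + 1, on a log axis, of the 10 effector genes, of 3 marker lists and of S100a8 with S100a9, in each CNS library (red) and dLN library (blue; circles, replicate 1; triangles, replicate 2). The effector genes are level between the CNS libraries (7476 and 7840 FPKM), whereas the macrophage list (25.5 and 185 FPKM) and S100a8 with S100a9 are higher in CNS replicate 2.

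Among the other annexins, 4 of 8 genes were tested and 2 were called higher, beside 37.8% of all genes tested. Anxa4, a membrane-binding annexin of epithelia, was at 11.3 and 12.4 FPKM in CNS and at 2.29 and 2.07 FPKM in dLN (log2 ratio 2.01 ± 0.11, limma adjusted p = 0.000132). Anxa11 was at 56.1 and 57.9 FPKM in CNS and at 41.5 and 37.2 FPKM in dLN, a smaller difference (log2 ratio 0.52 ± 0.09, limma adjusted p = 0.00502). Anxa7 was level between the tissues at 28.05 and 29.0 against 31.3 and 26.8 FPKM, and its log2 ratio had a 95% interval of -0.30 to 0.26. Anxa3 was at 0.562 and 2.004 FPKM in CNS and at 0.650 and 0.417 FPKM in dLN, and it was not called (limma adjusted p = 0.235). Its log2 ratio was 0.97 without CNS replicate 1 and 0.03 without CNS replicate 2. The annexin genes thus ran from Anxa7, at -0.02, to Anxa1, at 4.66 on the log2 scale.

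Among the other galectins, 4 of 9 genes were tested and 2 were called higher, against the same background of 37.8%. Lgals9, a galectin with paired sugar-binding domains and a ligand of Tim-3, was at 112 and 104 FPKM in CNS and at 8.94 and 7.48 FPKM in dLN. Its log2 ratio of 3.57 ± 0.11 (limma adjusted p = 8.1e-05) was larger than that of Lgals1 or Lgals3, though its level in CNS was below theirs. Lgals8 was at 14.9 and 12.3 FPKM in CNS and at 3.37 and 2.11 FPKM in dLN (log2 ratio 1.99 ± 0.20, limma adjusted p = 0.000754). Lgals7 (log2 ratio -0.42, limma adjusted p = 0.359) and Lgalsl (0.25, limma adjusted p = 0.103) were not called, though Lgalsl was with upper quartile scaling (0.37, limma adjusted p = 0.0366). Across the families, S100a7a, S100g, Anxa10, Anxa13, Lgals2, Lgals12 and 9130204L05Rik were listed at 0 in all 4 libraries, where 3 fragments would have given between 0.0529 and 0.554 FPKM depending on the gene and library.

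**Figure D5:**
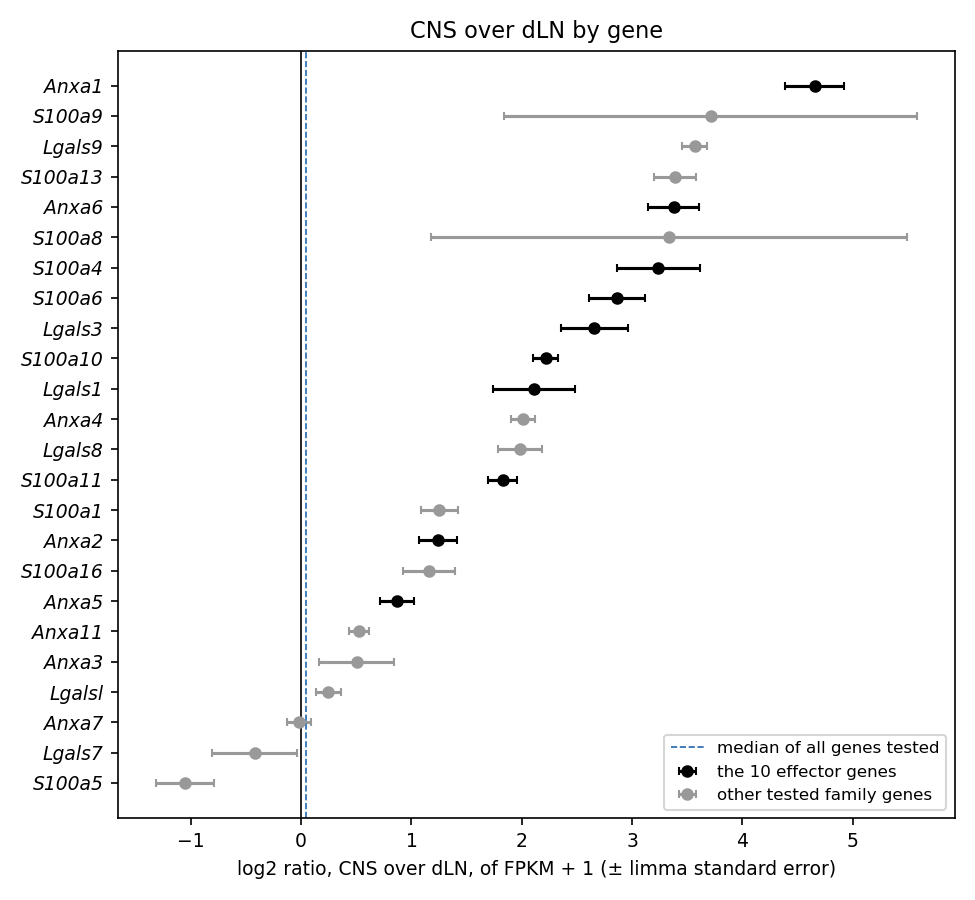
Log2 ratio of CNS over dLN (FPKM + 1) with its limma standard error for the 10 effector genes (black) and the other tested S100, annexin and galectin genes (grey), ordered by size. The black points run from 0.87 (Anxa5) to 4.66 (Anxa1), the dashed line marks the median of 0.05 over all genes tested, and S100a8, S100a9 and S100a16 were at 0 in dLN, so that their points depend on the 1 FPKM added.

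Partners and receptors of these proteins were also measured. Of 14 such genes 10 were tested, with 6 called higher in CNS and 1 lower, and their median log2 ratio was 1.05. These 7 calls of 10 were close to the 74.9% called in either direction over all genes tested. By direction, 37.8% of all genes tested were called higher and 37.2% lower. Ahnak, a giant scaffold that binds the complex of S100a10 and annexin A2 at the membrane, was at 68.2 and 62.1 FPKM in CNS and at 7.35 and 5.77 FPKM in dLN (log2 ratio 3.14 ± 0.13, limma adjusted p = 9.4e-05). Myh9, the nonmuscle myosin heavy chain bound by S100a4, was at 277 and 306 FPKM in CNS and at 72.9 and 55.2 FPKM in dLN (log2 ratio 2.18 ± 0.15, limma adjusted p = 0.000269). Both thus rose together with the S100 genes whose proteins bind theirs. Plgrkt, a plasminogen receptor, rose with a log2 ratio of 0.82 (limma adjusted p = 0.00528, or 0.0587 without CNS replicate 1). Fpr2, a receptor of annexin A1, was at 0.250 and 3.68 FPKM in CNS and listed at 0 in both dLN libraries, and it was not called (limma adjusted p = 0.125). Its log2 ratio was 2.23 without CNS replicate 1 and 0.32 without CNS replicate 2. With both dLN libraries at 0, these fits cannot decide a call.

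The surface glycoproteins that galectins bind did not move in one direction. Cd7, which galectin-1 binds on T cells, was at 61.4 and 69.9 FPKM in CNS and at 4.11 and 2.28 FPKM in dLN (log2 ratio 4.02 ± 0.23, limma adjusted p = 0.000165). Spn (CD43) rose with a log2 ratio of 0.73 (limma adjusted p = 0.00257), and Lgals3bp, a secreted glycoprotein bound by galectin-3, with 2.42 (limma adjusted p = 0.000199). Havcr2 (Tim-3), the receptor of galectin-9, fell, from 79.1 and 51.0 FPKM in dLN to 18.1 and 24.8 FPKM in CNS (log2 ratio -1.54 ± 0.26, limma adjusted p = 0.00415), while Lgals9 rose. Without CNS replicate 1 the limma adjusted p of Havcr2 was 0.0532. Ptprc (CD45) was at 382 and 372 FPKM in CNS and at 331 and 337 FPKM in dLN (log2 ratio 0.18, limma adjusted p = 0.0677) and Lamp1 at 58.9 and 67.0 against 58.6 and 61.4 FPKM (log2 ratio 0.07, limma adjusted p = 0.568), and neither was called. With upper quartile scaling Ptprc was called higher (log2 ratio 0.31, limma adjusted p = 0.0136).

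Enzymes that build or cap the sugars read by galectins changed in both directions, with 6 of 12 called higher, 4 lower and a median log2 ratio of 0.23. These shares were not far from the 37.8% called higher and 37.2% called lower over all genes tested. Mgat5, whose branched N-glycans are high affinity ligands of galectin-3, was at 4.58 and 4.99 FPKM in CNS and at 5.14 and 4.73 FPKM in dLN, with a log2 ratio of -0.04 (95% interval -0.31 to 0.23). Man2a1, Mgat4a, Mgat4b, Mgat1 and B4galt1, of the same N-glycan route, rose with log2 ratios of 1.58, 1.37, 0.86, 0.49 and 0.78, and Mgat2 was not called (-0.18, limma adjusted p = 0.156), though with the same FPKM sum per library it was called lower (-0.37, limma adjusted p = 0.0263). Mgat1 lost its call without CNS replicate 2 (limma adjusted p = 0.0736), without dLN replicate 2 (0.0679) and with its highest transcript alone (0.37). St6gal1, which adds the alpha-2,6 sialic acid that blocks galectin-1 binding, fell from 14.2 and 16.6 FPKM in dLN to 4.33 and 5.50 FPKM in CNS (log2 ratio -1.47 ± 0.14, limma adjusted p = 0.000676). Gcnt1, which makes the core 2 O-glycans that carry galectin-1 ligands, also fell, from 21.5 and 21.8 FPKM to 4.62 and 5.69 FPKM (log2 ratio -1.89 ± 0.12, limma adjusted p = 0.000196). St3gal1 and B3gnt2 fell by 1.19 and 0.72 on the log2 scale, and St3gal6 rose by 2.51. Of the genes that fell, St6gal1 and Gcnt1 act on galectin-1 binding in opposite ways.

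Transcript choice was measured for the members with more than one transcript. Anxa6 has 2 transcripts, which differ by an exon of 18 bases, exon 21 of 26, in the coding part, at chr11:54987051-54987068 on the minus strand. The exon, in capitals, is shown with the 24 bases of the transcript before and after it in lower case, because its 6 codons are the whole difference between the forms.
Anxa6: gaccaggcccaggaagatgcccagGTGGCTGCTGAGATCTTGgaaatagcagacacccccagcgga
The form with the exon made up 67.0% and 68.0% of Anxa6 FPKM in CNS and 66.4% and 73.6% in dLN, so the tissues overlapped while the total rose. Lgals3 has 2 transcripts, of 1406 and 1379 bases. The longer made up 66.5% and 67.2% in CNS and 62.5% and 80.2% in dLN, which also overlapped. The longer transcript of Lgals9 made up 5.20% and 5.35% in CNS and 11% and 11.6% in dLN, without overlap. These shares are estimates from fragments that the forms mostly have in common, and they were not tested.

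The genes whose pattern over the 4 libraries was most like that of one member of each family, the one with the highest mean over all 4 libraries, were found by the distance between centred log2(FPKM + 1) values, among the 5634 tested genes that averaged 10 FPKM or more. For S100a4 these were Sit1 (distance 0.197), Myo1f (0.25) and Cdkn2d (0.276), and the nearest effector gene was Anxa6 (0.405). Sit1 was at 95.5 and 91.2 FPKM in CNS and at 12.3 and 5.79 FPKM in dLN, with dLN replicate 1 above dLN replicate 2 as for S100a4. For Anxa2, whose mean over all libraries led the annexins although Anxa6 was the higher in both CNS libraries, they were Hcls1 (0.0543), Htatip2 (0.0573) and 2610002J02Rik (0.0744), and for Lgals1 Aqp3 (0.248), Acsbg1 (0.251) and Sh2d3c (0.257). Over 4 libraries such a likeness is a description and was not tested.

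Some of the values carry a limit of identity. S100a4 shares 302 exon bases with Gm42674 on the same strand, and Anxa2 shares 98 with the antisense gene Gm16144. The strand setting of the libraries is not given in the sources used here, and reads of such pairs may not be separable. S100a11 and Lgals1 have processed pseudogenes (S100a11-ps on chromosome 12, Lgals1-ps1 on chromosome 17 and Lgals1-ps2 on chromosome 15), for which no value was used here, so their levels may include reads of these copies. Each library held an estimated 18.5 M to 22.1 M fragments, and of the 10 genes Anxa1 in dLN replicate 2 rested on the fewest, 30.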

How the data were processed

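RNA of sorted CD44+ CD4 cells was measured by RNA-seq in 2 CNS and 2 dLN libraries made with TruSeq kits (Illumina). Reads were trimmed and mapped by the authors, and the deposited values are FPKM of RefSeq transcripts (mm10), with 33819 transcripts in each of 2 tables. The aligner and the program that computed FPKM are not given in the sources used here. Both library names of the CNS table share 1 header cell, so the columns were taken to follow the order of those names.

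FPKM was summed per gene symbol, and 565 transcripts without a symbol, with 0.142% to 0.446% of a library's FPKM, were left out. Genes that averaged 1 FPKM or more in a tissue were tested in limma 3.58.1 (R 4.3.3, lmFit and eBayes with trend) on log2(FPKM + 1), two-sided and with tissue as its sole term, and Benjamini-Hochberg adjustment over all 10634 genes at 0.05. Such ratios understate the change of low genes. A gene that averaged under 1 FPKM in a tissue was tested only if the other tissue reached it, so its call could hardly go the other way. Depth and effective length were estimated from the spacing of low FPKM values, of which 87.8% to 90.7% were whole multiples of 1 fragment within 0.05 fragments, too few for a test on counts. In data simulated for CNS against dLN with 10634 genes, limma recovered 44 of 100 genes changed by 1 and 82 of 100 changed by 2 on the log2 scale, with 3 calls on unchanged genes. Only these genes were changed there, a far smaller share than the 74.9% called in the data. The spreads were also shuffled between genes, so the recovery in the real comparison may differ. In simulated libraries the depth estimate was within 0.0659%. The rest was done in Python 3.11.15 (pandas 2.3.3, numpy 2.4.6, matplotlib 3.10.9, scipy 1.17.1). Coordinates count from 1, and strands and overlapping genes came from the mm10 gene annotation.

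The 10 effector genes and the lists of other family genes, partners, glycosylation enzymes and cell type markers were chosen with earlier results of these data known. Named are the 10 genes, every tested gene of the family, partner and glycosylation lists, the 3 markers with the highest mean in CNS and, per family, the 3 genes most like the member with the highest mean over all 4 libraries. Other markers were named after their values were seen. Ly6g was not matched to a row. Alternatives covered the pseudocount, filters, 3 scalings, the highest transcript, eBayes without trend, a minimum fold, a replicate block and leaving out each library, and the whole transcript length was added after seeing the data.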

Additional observations from a re-analysis of the deposited data

How the results depend on the processing

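All 10 effector genes kept their direction under each of the 16 alternatives, and 156 of 160 comparisons of a gene with an alternative also kept their side of the threshold. The exceptions were Anxa5 with a minimum log2 ratio of 1 and without CNS replicate 2, and Lgals1 without either CNS library. The filters, eBayes without trend, the minimum fold and the replicate block leave the log2 ratio of a gene unchanged by design. Since both CNS libraries lay above both dLN libraries for all 10 genes, leaving out a library or another pseudocount could not reverse it either. A kept direction under these alternatives is therefore no check. Leaving out a library gave 8 to 10 effector genes called higher and 0 lower, 7 to 11 other family genes called (8 with all libraries) and 6596 to 7363 genes called over the table (7968 with all). A minimum log2 ratio of 1 left 4168 genes called over the table, and a minimum of 5 FPKM left 5 other family genes called, since fewer of them were tested. Scaling to the same FPKM sum moved the median log2 ratio of all genes to -0.13, with 3423 of 7945 calls higher in CNS, and scaling to the upper quartile moved it to 0.16, with 4468 of 8037 higher, and all 10 effector genes were called higher under both. The labels give both tissues replicates 1 and 2, but their differences did not go together (Pearson r = 0.0933 over 10634 genes, which are not independent), and with a replicate block 7828 genes and all 10 effector genes were called. With 3 libraries the lone library of a tissue is assumed to vary like those of the other. The calls that S100a8 and S100a9 gained without CNS replicate 1 rested on dLN libraries listed at 0 and decide nothing.

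Of 567 comparisons for the other named genes, 531 kept direction and call, 14 lost the call, 10 gained it and 12 changed direction, the last all for genes not called. Anxa7 changed direction with the upper quartile (0.11), with the highest transcript (0.0158), without CNS replicate 1 (0.0040) and without dLN replicate 1 (0.0869). Mgat5 did so with the upper quartile (0.0756), without CNS replicate 1 (0.0136) and without dLN replicate 1 (0.0129; lowest -0.0873, without CNS replicate 2), and Ptprc with the same FPKM sum (-0.0225) and the highest transcript (-0.20). Lamp1 did so with the same FPKM sum (-0.13) and without CNS replicate 2 (-0.0270), and Lgals7 without CNS replicate 1 (0.11, against -0.95 without CNS replicate 2). The cause of these changes was not tested. S100a9, not called in the main fit, was called with a pseudocount of 0.1 (6.51). Its log2 ratio was 6.60 without CNS replicate 1 and 0.82 without CNS replicate 2. The log2 ratio of Anxa1 ran from 3.42 with a pseudocount of 5 to 5.25 with 0.1. Scaling gave calls of Mgat2 (-0.37, same FPKM sum), Lgalsl (0.37) and Ptprc (0.31, both upper quartile).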
